A study of Mus musculus with 6 samples.

Results

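The ID proteins and the feedback genes of BMP-SMAD signalling were examined in xenograft tumours of NCI-H2228 cells after a dose of the ALK inhibitor CH5424802, known later as alectinib. The genes were listed by name, and the list was made with earlier results of these data known. They were ID1, ID2, ID3, ID4, SMAD6, SMAD7, SMAD3, BMP4, BAMBI and SKIL, 10 of the 19775 genes with a probe set annotated to them alone. They had 25 such probe sets of 41097. NCI-H2228 is a human lung adenocarcinoma line that carries an EML4-ALK fusion. All groups were tumours of this single line grown under the skin of SCID mice, which lack functional T and B cells. All were lysed 6 h after dosing by mouth. The groups were vehicle (0 mg/kg), 4 mg/kg and 20 mg/kg of CH5424802, with 2 arrays each. The labels do not tie the arrays of a group to separate animals. The p-values below therefore set differences between groups only against the spread between arrays of a group, which could be technical. They name the mouse as organism, but the probe sets are for human genes, and how mouse transcripts read on it was not measured.

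ID proteins carry a helix-loop-helix domain without a DNA-binding region. They pair with E proteins, the common partners of tissue-specific basic helix-loop-helix (bHLH) factors, and keep them off DNA. BMP ligands bind receptor kinases that phosphorylate SMAD1, SMAD5 and SMAD9, and ID1, ID2 and ID3 are among the classical targets of these SMADs. The pathway also induces its own brakes: SMAD6 and SMAD7 block receptors and SMADs, BAMBI is a receptor without a kinase domain, and SKIL (SnoN) represses transcription by SMAD complexes. SMAD3 carries the signal of TGF-beta and activin. In many tumours growth factor signalling also feeds into ID1 transcription and SMAD activity.

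The values are intensities on a linear scale that bottom out at 4.58, and log2 changes are differences between group means of their log2. Between 39.4% and 40.1% of all probe sets lay at this floor in each array. Each gene was represented by its brightest probe set, and 10271 genes with a mean log2 of at least 4 were tested. The test was limma, two-sided, with Benjamini-Hochberg adjustment over all tested genes and a threshold of 0.05. Each standard error (SE) rests on a spread pooled over the 3 groups. The 18S ribosomal RNA control (5' probe set) was at 1713 in vehicle replicate 1, 4058 in vehicle replicate 2 and 374 to 637 in the treated arrays. Of 10 lung adenocarcinoma markers all 10 were measured above the filter. At 20 mg/kg 1 of them, KRT18, fell (log2 -1.54, limma adjusted p = 0.0416), and no other passed. KRT7 (-0.92), KRT8 (-0.88), SFTPB (-0.45), KRT19 (-0.34), MUC1 (-0.14) and NAPSA (-0.06) were also below 0 there. EPCAM (0.50), CDH1 (0.23) and NKX2-1 (0.10) were above 0. The summed intensity of the 10 was 100756 and 112246 with vehicle, 106513 and 108599 at 4 mg/kg and 90270 and 97258 after 20 mg/kg. The part of these cell type markers in the results below was not tested. Of 8 endothelial markers, a cell type known for high ID1 and SMAD6, 4 sat at the floor in all arrays (VWF, CLDN5, EMCN and TIE1). CDH5 and TEK stood just above the floor with no difference between arrays, and PECAM1 and KDR made up nearly all of the list's summed intensity. That sum was 515 and 565 with vehicle, 571 and 464 at 4 mg/kg and 524 and 515 after 20 mg/kg. Of 10 fibroblast markers none passed at either dose, with summed intensities of 36678 and 39443 with vehicle, 37606 and 36428 at 4 mg/kg and 35954 and 40344 after 20 mg/kg, most of it COL1A1, and with PDGFRB at the floor. Of 6 leukocyte markers measured none passed either, their sums lay between 104 and 108, and TYROBP was at the floor. Host endothelial cells, fibroblasts and leukocytes are mouse cells here, and how their transcripts read on human probe sets was not measured. The sums of these lists therefore do not measure the amount of host tissue. In bulk tumour RNA fewer cells of a type and less RNA per cell cannot be told apart.

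Of the 10 genes, 8 were bright enough to test, and none of the 8 passed the test in any comparison when read by its brightest probe set. Among all tested genes the share called was 4.33% for 20 mg/kg against vehicle, 0.0584% for 4 mg/kg against vehicle and 0.37% for 20 against 4 mg/kg. At an unadjusted p under 0.05, 5 of the 8 lay below the line for 20 mg/kg against vehicle (ID1, ID2, SMAD7, BMP4 and SKIL), where 24.2% of all tested genes did. For 4 mg/kg against vehicle 2 of the 8 did (ID1 and SKIL), with 17% of all genes, and for 20 against 4 mg/kg 1 of the 8 (BMP4), with 13.4%. The median log2 change of the 8 genes at 20 mg/kg was -0.25, against 0 for all tested genes, and their median absolute change was 0.86, against 0.17. Since the list was made with earlier results of these data known, such contrasts with all genes may come from the choice. One second probe set, ID4 209291_at, did pass in a fit over 16900 probe sets and is described below with the other ID genes.

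**Figure D1:**
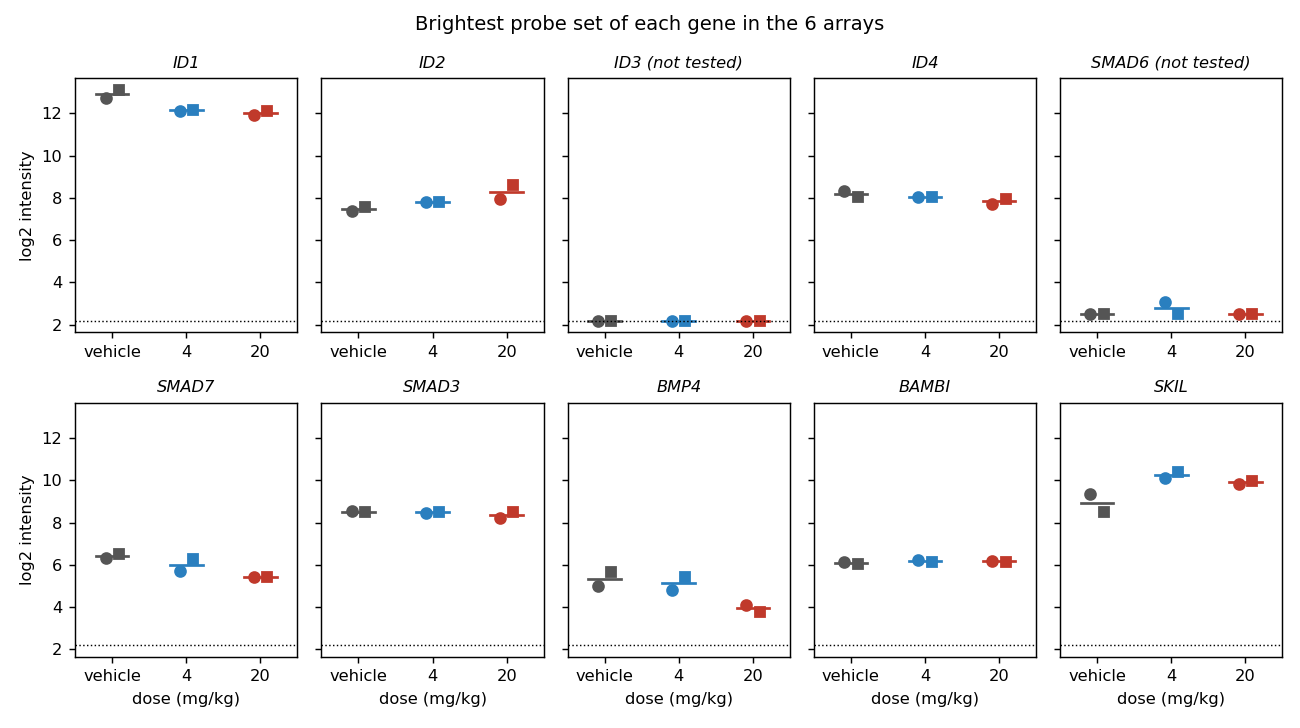
Log2 intensity (y axis) of the brightest probe set of each of the 10 genes by dose in mg/kg (x axis); circles are replicate 1, squares replicate 2, bars the mean of both arrays, and the dotted line is the floor of the table. ID1 is lower in all 4 treated arrays than in both vehicle arrays, SKIL is higher in all 4, SMAD7 and BMP4 are lowest at 20 mg/kg, and ID3 and SMAD6 lie at or near the floor.

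ID1 was far above the floor in every array. It read 6824 and 8804 with vehicle, 4470 and 4589 at 4 mg/kg and 3814 and 4356 after 20 mg/kg. All 4 treated arrays lay below both vehicle arrays, and the 20 mg/kg arrays lay below the 4 mg/kg arrays by a small margin. The difference from vehicle was 1.90-fold at 20 mg/kg (log2 -0.93, SE 0.15, limma adjusted p = 0.0683) and 1.71-fold at 4 mg/kg (log2 -0.78, SE 0.15, adjusted p = 0.171). Neither passed. The 2 doses were 0.15 log2 units apart (95% confidence interval of the difference -0.59 to 0.29, adjusted p = 0.735). By size, ID1 ranked 84th among the decreases at 4 mg/kg and 263rd at 20 mg/kg of 10271 genes. Vehicle replicate 2, the array with the highest 18S reading, also had the highest ID1. Without it ID1 was at -0.74 (adjusted p = 0.131) at 20 mg/kg, and without vehicle replicate 1 it was at -1.11 and passed (adjusted p = 0.0473). The part of the 18S difference in this result was not tested.

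ID2, the family member that also binds the retinoblastoma protein, went the other way in these arrays. It read 165 and 191 with vehicle, 222 in both arrays at 4 mg/kg, and 247 and 386 after 20 mg/kg. The groups were ordered by dose with no overlap, but the 20 mg/kg arrays differed more from each other than the 4 mg/kg arrays did from vehicle. The log2 change was 0.80 at 20 mg/kg (SE 0.25, limma adjusted p = 0.175) and 0.32 at 4 mg/kg (adjusted p = 0.566), and neither passed. Without 20 mg/kg replicate 2 the change at 20 mg/kg was 0.48, and without 20 mg/kg replicate 1 it was 1.12. The other probe set of ID2 alone, 201566_x_at, read 4.75 in all 6 arrays, next to the floor, and one shared with ID2B read the floor in all arrays, so neither carries information on dose.

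ID3, the third ubiquitous member of the family and usually a partner of ID1 in BMP responses, was listed at the floor of 4.58 in all 6 arrays. It has 1 probe set here, and no level or change of ID3 can be read from it.

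ID4, which is known mainly from neural and mammary progenitors, had probe sets that disagreed. Its brightest probe set, 209293_x_at, read 324 and 259 with vehicle, 259 in both arrays at 4 mg/kg, and 211 and 248 after 20 mg/kg. The 20 mg/kg arrays were the lowest, the higher of them close to the 259 read in 3 other arrays. This probe set did not pass at 20 mg/kg (log2 -0.34, SE 0.15, limma adjusted p = 0.28 in the fit over genes). It is of a type that may cross-hybridise. With such probe sets left out, ID4 was read by its next brightest probe set, described below, and passed (log2 -1.12, limma adjusted p = 0.0146).

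The next brightest ID4 probe set, 209291_at, read 268 and 247 with vehicle, 254 and 247 at 4 mg/kg, and 116 and 121 after 20 mg/kg. The 4 mg/kg arrays lay within or next to the vehicle range, and both 20 mg/kg arrays were at less than 50% of every other array. In the fit over 16900 probe sets it fell 2.17-fold at 20 mg/kg against vehicle (log2 -1.12, SE 0.05, limma adjusted p = 0.0161) and 2.11-fold against 4 mg/kg (log2 -1.08, SE 0.05, adjusted p = 0.0361). At 4 mg/kg against vehicle it was at -0.04 (95% confidence interval -0.19 to 0.11, adjusted p = 0.749). It was the only one of 13 tested probe sets of the 10 genes that passed, in the same 2 comparisons. The shares called among all probe sets were 3.19% and 0.254%, and 0% for 4 mg/kg against vehicle, where none of the 13 passed (limma; 15.2% of all probe sets had an unadjusted p under 0.05 there, against 22.2% for 20 mg/kg against vehicle and 12.5% for 20 against 4 mg/kg).

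The call against vehicle was lost, with the same sign, when 20 mg/kg replicate 1 was left out (-1.09, adjusted p = 0.0839), when replicate 2 of that dose was left out (-1.15, adjusted p = 0.0785) and without either 4 mg/kg array (-1.12, adjusted p = 0.0587), where the change itself is the same and the spread is estimated from fewer arrays. The call against 4 mg/kg was lost without any one of the 6 arrays, at changes from -1.05 to -1.11 and adjusted p from 0.0606 to 0.157. With the replicate number as a block the adjusted p was 0.0582 against vehicle and 0.126 against 4 mg/kg.

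The 3 dimmer ID4 probe sets did not share this pattern as a group. The probe set 229386_at read 16.7 to 19.4 with vehicle and 19.4 to 21.8 at 20 mg/kg (log2 0.19, adjusted p = 0.399). Below the filter, 226933_s_at was at -0.30 and 209292_at at -0.72 for 20 mg/kg against vehicle, untested. The last read 9.05 and 14.4 with vehicle, 10.2 and 8.64 at 4 mg/kg, and 6.82 and 7.01 after 20 mg/kg, so its 20 mg/kg arrays were also the lowest, at most 14.4 in any array. Which ID4 transcript each probe set reads was not analysed here.

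**Figure D2:**
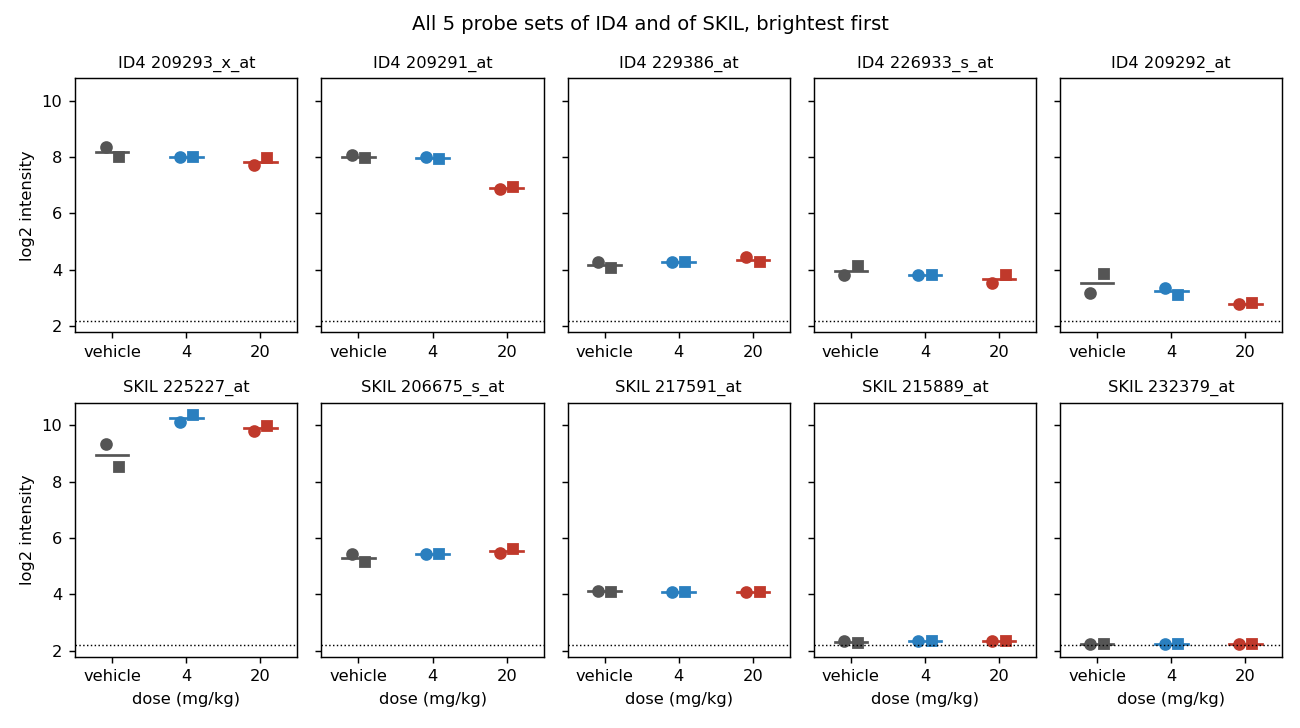
Log2 intensity (y axis) of every probe set of ID4 (top) and SKIL (bottom), brightest at the left, by dose in mg/kg (x axis); circles are replicate 1, squares replicate 2, bars the mean of both arrays, and the dotted line is the floor. ID4 209291_at reads between 247 and 268 with vehicle or 4 mg/kg, and 116 and 121 with 20 mg/kg, while the brightest ID4 probe set shows a much smaller step; for SKIL only the brightest probe set is well above the others and higher in all treated arrays.

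BMP4, the ligand of the set, was dim. It read 32.0 and 50.3 with vehicle, 28.1 and 43.5 at 4 mg/kg, and 17.4 and 13.8 after 20 mg/kg. The 4 mg/kg arrays overlapped the vehicle arrays, and both 20 mg/kg arrays lay below all others. The difference was 2.58-fold at 20 mg/kg against vehicle (log2 -1.37, SE 0.35, limma adjusted p = 0.131) and 2.25-fold against 4 mg/kg (log2 -1.17, SE 0.35, adjusted p = 0.308). It was the largest change of the 8 tested genes at 20 mg/kg, ranking 94th among decreases, and it did not pass. Both 20 mg/kg arrays lay close to the filter intensity of 16. With 16 added to each value before log2 the BMP4 change was -0.84, smaller in size than for SKIL (0.94) and ID1 (-0.92). A stricter filter, a mean log2 of at least 5, left BMP4 out. At 4 mg/kg against vehicle BMP4 was at -0.20 (95% confidence interval -1.21 to 0.82, adjusted p = 0.82), a range that leaves room for a change of 1.21 log2 units at this dose. That value turned to 0.13 without vehicle replicate 2 and to 0.12 without 4 mg/kg replicate 1.

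SMAD7, the inhibitory SMAD that acts on both BMP and TGF-beta receptors, had a graded order. It read 79.4 and 92.6 with vehicle, 51.5 and 78.4 at 4 mg/kg, and 43.6 and 43.0 after 20 mg/kg. No group overlapped another, although the higher 4 mg/kg array was only 1 intensity unit below the lower vehicle array. The difference from vehicle was 1.98-fold at 20 mg/kg (log2 -0.98, SE 0.24, limma adjusted p = 0.117) and 1.35-fold at 4 mg/kg (log2 -0.43, adjusted p = 0.488), neither past the test. At 4 mg/kg the value rested on replicate 1: it was -0.13 without it and -0.73 without 4 mg/kg replicate 2. SMAD7 has 1 probe set.

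SMAD6, the inhibitory SMAD specific to BMP signalling, could not be tested. Its 4 probe sets read between 4.58 and 8.33 in all arrays. The brightest was at 5.66 in 4 arrays, 8.33 in 4 mg/kg replicate 1 and 5.64 in 20 mg/kg replicate 1, and another 2 of the 4 were at the floor throughout.

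SMAD3 differed little. Its brightest probe set read 372 and 361 with vehicle, 355 and 361 at 4 mg/kg, and 300.2 and 361 after 20 mg/kg, and the groups overlapped. The log2 change was -0.16 at 20 mg/kg (95% confidence interval -0.44 to 0.13, limma adjusted p = 0.454) and -0.04 at 4 mg/kg (adjusted p = 0.924). A second tested probe set, 205396_at, read 164 and 230 with vehicle and 145 and 156 at 20 mg/kg, a log2 change of -0.37 (SE 0.25, adjusted p = 0.491). The interval of the brightest probe set reached -0.44 at 20 mg/kg, and that of the second probe set -1.09. Both rest on the spread between arrays of a group, so they do not exclude a larger decrease of SMAD3. Its other 2 probe sets lay at or next to the floor.

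BAMBI, the pseudoreceptor, had the smallest change of the 8 at 20 mg/kg. It read 71.2 and 64.8 with vehicle, 75.2 and 69.3 at 4 mg/kg, and 72.3 and 71.2 after 20 mg/kg. The log2 change was 0.08 at 20 mg/kg (95% confidence interval -0.12 to 0.28, limma adjusted p = 0.544) and 0.09 at 4 mg/kg (-0.11 to 0.28, adjusted p = 0.566). With each array centred on its median the value at 4 mg/kg was -0.01.

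SKIL, the SMAD corepressor that TGF-beta itself induces, was higher in every treated array. Its brightest probe set read 649 and 366 with vehicle, 1104 and 1333 at 4 mg/kg, and 898 and 1012 after 20 mg/kg. No vehicle array reached a treated one, and the 4 mg/kg arrays were above the 20 mg/kg arrays. The difference was 2.49-fold at 4 mg/kg (log2 1.32, SE 0.33, limma adjusted p = 0.21) and 1.96-fold at 20 mg/kg (log2 0.97, SE 0.33, adjusted p = 0.195), neither past the test. It ranked 104th among increases at 4 mg/kg. The vehicle arrays differed from each other by more than the 2 doses did. Without vehicle replicate 2, the lower array and the one with the highest 18S reading, SKIL was at 0.90 at 4 mg/kg and 0.55 at 20 mg/kg, and without vehicle replicate 1 at 1.73 and 1.38. The part of the 18S difference was not tested. The next brightest probe set, 206675_s_at, was at 0.14 and 0.25, and the other 3, which read 17.5 or less, were flat.

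**Figure D3:**
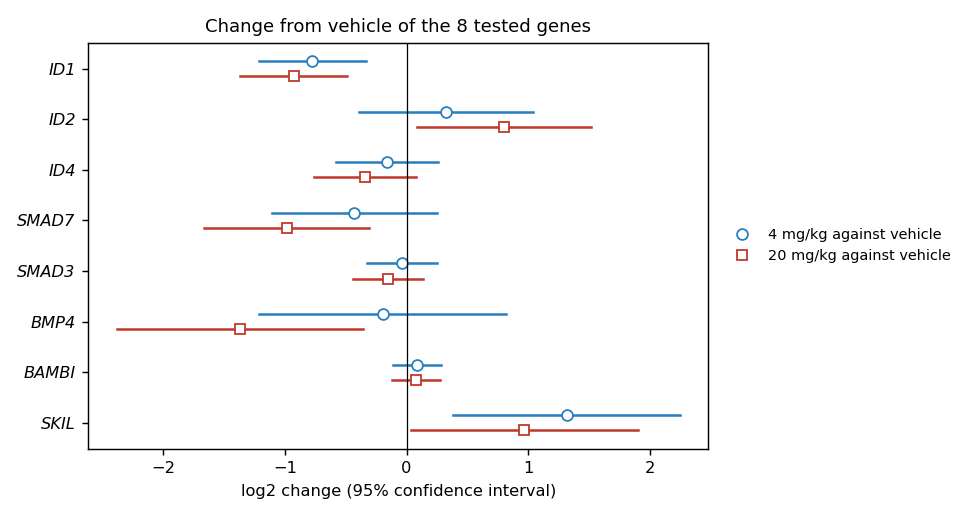
Log2 change from vehicle (x axis) with its 95% confidence interval from limma for the 8 tested genes (y axis), at 4 mg/kg (circles) and 20 mg/kg (squares), 2 arrays per group; open symbols did not pass at an adjusted p of 0.05. All symbols are open; the intervals at 20 mg/kg leave out 0, before adjustment over all genes, for ID1, ID2, SMAD7, BMP4 and SKIL.

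Counting arrays rather than p-values, the 2 groups did not overlap for 6 of the 8 genes at 20 mg/kg against vehicle, for 4 of 8 at 4 mg/kg against vehicle and for 6 of 8 at 20 against 4 mg/kg. Among all tested genes such separation was seen for 50.4%, 37.5% and 36.4%, so with 2 arrays a group it is common. The 2 comparisons with vehicle share the vehicle arrays.

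A further 71 genes of the BMP and TGF-beta pathway were listed by role, and 50 of the 67 measured were bright enough to test. At 20 mg/kg against vehicle 1 rose, 3 fell and 46 did not pass, 8% of the 50 against 4.33% of all genes. Their median log2 change was 0.00, as for all genes, and their median absolute change was 0.29 against 0.17. This list too was made with earlier results of these data known, so its contrasts with all genes may come from the choice. None of the 50 passed at 4 mg/kg against vehicle or at 20 against 4 mg/kg (limma; 10 and 13 had an unadjusted p under 0.05). By role at 20 mg/kg, 1 of 7 ligands of the TGF-beta family passed, GDF15, and the other 6 did not. Of the remaining roles, 0 of 5 extracellular antagonists, 0 of 9 receptors and 0 of 5 receptor-activated or common SMADs passed. So did 1 of 10 intracellular inhibitors, 2 of 6 bHLH partners and targets of ID proteins, and 0 of 8 other SMAD targets.

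Among the ligands GDF15, a distant member of the TGF-beta family that cell stress induces, fell. GDF15 was listed by family, and whether it acts through BMP or TGF-beta receptors was not tested here. It read 10393 and 11596 with vehicle, 8032 and 7368 at 4 mg/kg, and 5233 and 5483 after 20 mg/kg, ordered by dose with no overlap. The change was 2.05-fold at 20 mg/kg (log2 -1.04, SE 0.08, limma adjusted p = 0.0246), while the value at 4 mg/kg did not pass (log2 -0.51, adjusted p = 0.155). Its other 2 probe sets were at the floor, so the mean of the 3 gave -0.35, still called.

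TWSG1, a secreted protein that binds BMPs outside the cell, and TGFBR2, the type II receptor for TGF-beta, did not pass. TWSG1 read 445 and 311 with vehicle, 745 and 800 at 4 mg/kg, and 744 and 872 after 20 mg/kg (log2 1.11 at 20 mg/kg, SE 0.21, limma adjusted p = 0.0844). It passed without vehicle replicate 1 (1.37, adjusted p = 0.0488). TGFBR2 read 3252 and 3785 with vehicle, 2504 and 3219 at 4 mg/kg, and 1856 and 1669 after 20 mg/kg (log2 -0.995 at 20 mg/kg, SE 0.17, adjusted p = 0.0692). Among the receptors for BMPs, BMPR2 was at 0.48 (adjusted p = 0.192), ACVR1 at 0.69 (adjusted p = 0.142) and BMPR1B at 0.17 (adjusted p = 0.455).

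Apart from SMAD3, described above, the SMADs that carry the signal were above 0 at 20 mg/kg, none past the test: SMAD1 at 0.11, SMAD2 at 0.34, SMAD4, the common partner, at 0.59 (limma adjusted p = 0.155), SMAD5 at 0.09 and SMAD9 at 0.12. Within the intracellular inhibitors SMURF2, a ubiquitin ligase that marks SMADs and their receptors for degradation, fell by its brightest probe set. It read 2613 and 2560 with vehicle, 2094 and 2263 at 4 mg/kg, and 1718 and 1836 after 20 mg/kg (log2 -0.54 at 20 mg/kg, SE 0.06, adjusted p = 0.0382). Its other probe sets did not share this: the next brightest was at -0.02, the dimmest at -0.37, and the remaining one on the other side of 0, at 0.34 at 20 mg/kg and 0.90 at 4 mg/kg. The next brightest and the mean of the 4 probe sets, at -0.15, did not pass. PPM1A, a phosphatase that acts on SMAD2 and SMAD3, was at 0.85 (adjusted p = 0.304), and its second probe set by brightness was at 0.26.

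Of the bHLH genes that ID proteins act on, TCF4, an E protein, rose by its brightest probe set. It read 1050 and 911 with vehicle, 1655 and 1658 at 4 mg/kg, and 1646 and 1555 after 20 mg/kg, with both doses above vehicle. The change was 1.64-fold at 20 mg/kg (log2 0.71, SE 0.08, limma adjusted p = 0.0412), and the value of 0.76 at 4 mg/kg did not pass (adjusted p = 0.129) but did without vehicle replicate 1 (0.86, adjusted p = 0.038). Its next brightest probe set was at 0.34 and the mean of its 8 probe sets at 0.13 at 20 mg/kg, neither past the test, and the remaining probe sets lay between -0.12 and 0.11. The other E proteins did not pass, with TCF12 at 0.47 (adjusted p = 0.173) and TCF3 at -0.13 (adjusted p = 0.607).

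HES1, a bHLH repressor that Notch induces and that ID proteins can release from its own promoter, fell. It read 1635 and 1649 with vehicle, 1506 and 1752 at 4 mg/kg, and 584 and 755 after 20 mg/kg. The 4 mg/kg arrays enclosed the vehicle arrays, and both 20 mg/kg arrays were below 50% of either vehicle array. The change at 20 mg/kg was 2.47-fold (log2 -1.31, SE 0.16, limma adjusted p = 0.0445). At 4 mg/kg it was at -0.02 (95% confidence interval -0.47 to 0.44), and the comparison of 20 with 4 mg/kg did not pass (log2 -1.29, adjusted p = 0.100). The second probe set of HES1 was at -0.86 (adjusted p = 0.0569).

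Among other SMAD targets JUNB, an AP-1 subunit, read 753 and 1622 with vehicle, 405 and 608 at 4 mg/kg, and 435 and 423 after 20 mg/kg. It had the largest change at 20 mg/kg of the 50 genes (log2 -1.37, SE 0.46) and did not pass (limma adjusted p = 0.195). Its vehicle arrays lay far apart, with the higher value in vehicle replicate 2; without that array JUNB was at -0.81 and without vehicle replicate 1 at -1.92. The 4 calls in the list were close to the threshold. Without 20 mg/kg replicate 1, without 20 mg/kg replicate 2 or without either 4 mg/kg array none of GDF15, SMURF2, TCF4 and HES1 passed (adjusted p from 0.0679 to 0.189). Without vehicle replicate 2 none passed either (0.0723 to 0.162), and without vehicle replicate 1 GDF15 and TCF4 did. With the replicate number as a block none passed (0.0633 to 0.0681).

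**Figure D4:**
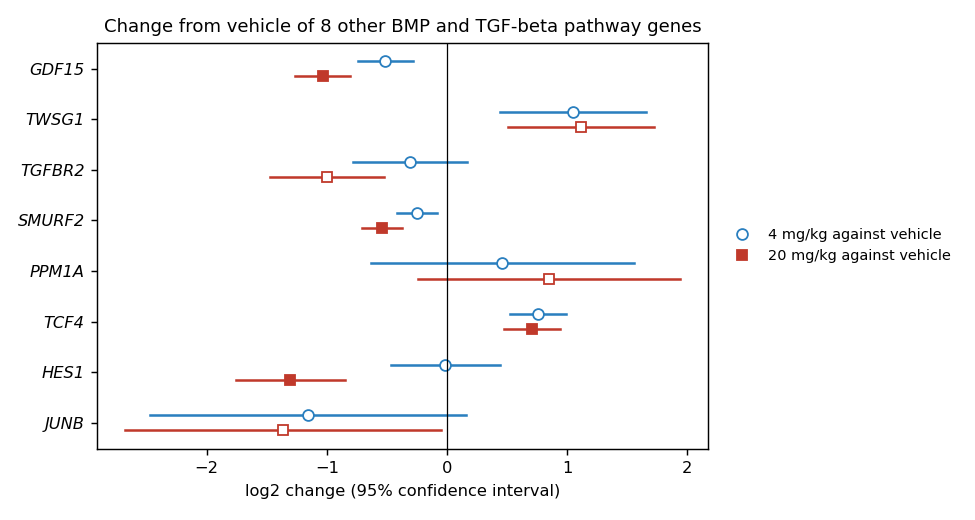
Log2 change from vehicle (x axis) with its 95% confidence interval from limma for 8 other genes of the BMP and TGF-beta pathway (y axis), at 4 mg/kg (circles) and 20 mg/kg (squares), 2 arrays per group; filled symbols passed at an adjusted p of 0.05. GDF15, SMURF2, TCF4 and HES1 are filled at 20 mg/kg and none at 4 mg/kg; HES1 is near 0 at 4 mg/kg, while TCF4 and TWSG1 are about as high at 4 as at 20 mg/kg.

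For the 5 genes whose brightest probe set spanned at least 1 log2 unit over the 6 arrays, the 3 most similar of the other 10270 tested genes were taken by the root mean square difference of log2 values, each gene centred on its own mean. These are descriptions over 6 arrays, and with this many genes close matches are common. ID1 lay nearest to GK3 (0.06 log2 units), PDLIM4 (0.07) and MGLL (0.07). MGLL read 4612 and 5751 with vehicle, 3105 and 3350 at 4 mg/kg, and 2895 and 2969 after 20 mg/kg, the same order as ID1. ID2 lay nearest to GKAP1 (0.07), DCP2 (0.10) and KGD4 (0.10). SMAD7 lay nearest to SRXN1 (0.05), GNL3L (0.06) and TLCD3A (0.06), each lower in 4 mg/kg replicate 1 than in replicate 2, as SMAD7 was. BMP4 lay nearest to MIDN (0.12), PDK1 (0.17) and DUSP4 (0.17), where DUSP4 read 477 and 650 with vehicle, 477 and 534 at 4 mg/kg, and 211 and 183 after 20 mg/kg. SKIL lay nearest to PHTF2 (0.06), QSER1 (0.06) and TRIM2 (0.08), which share its low value in vehicle replicate 2.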

How the data were processed

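The data are 6 arrays of xenograft tumour RNA. Per the submitters' processing notes the values come from GCRMA, run in R 2.10.0. What the authors deposited is linear intensity for 54675 probe sets. GCRMA can give several arrays the same value: in 3316 of 10271 tested genes both arrays of some group were equal (tolerance 1e-06 on the log2 scale), which lowers estimated spreads. Whether other arrays shared the normalization is not stated.

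Intensities were converted to log2, probe sets were named from the platform's annotation, and each gene took its brightest single-gene probe set. Genes with a mean log2 below 4 were left out. limma 3.58.1 in R 4.3.3 (lmFit, eBayes) was fitted to all 6 arrays with 3 contrasts, for genes and again for 16900 probe sets, after it was tested on simulated data. There were 3 residual and 0.723 prior degrees of freedom. Precision is limited by having 2 arrays a group.

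The 10 genes, the pathway and marker lists and the alternatives were chosen with earlier results of these data known. All 10 genes are named. Of the pathway list, genes past the test are named, filled up to 8 by absolute change at 20 mg/kg. Other receptors, SMADs and E proteins beside them were chosen after their values were seen. Some genes of that list are not reported here. Alternatives covered the level filter, pseudocount, normalization, probe set choice, replicate block and leaving out each array. Sequences and genome coordinates were not used here.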

Additional observations from a re-analysis of the deposited data

How the results depend on the processing

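With 2 arrays a group the spread is poorly known. Fewer genes were tested with the next brightest probe set (7247) or without probe sets that may cross-hybridise (7508) than as reported (10271). The prior degrees of freedom were 0.723 as reported, 2.13 after quantile normalization and 4.97 with arrays centred on their median. For 20 mg/kg against vehicle, where 445 genes passed, 57 did with no level filter, 1536 after quantile normalization, 1958 with arrays centred, 207 with the next brightest probe set, 285 without probe sets that may cross-hybridise, 93 with the replicate number as a block, and 5 to 802 without each array in turn. For 4 mg/kg against vehicle, where 6 passed, 3 did with no filter, 41 after quantile normalization, 766 with arrays centred, 0 with a stricter filter, log2(value + 16), the next brightest or the mean probe set or the block (limma; 1745 had an unadjusted p under 0.05 as reported), and 0 to 475 without each array. For 20 against 4 mg/kg, where 38 passed, 8 did with no filter, 333 after quantile normalization, 494 with arrays centred, 20 with the next brightest probe set, 0 with the block and 0 to 218 without each array. The share of higher calls was 50% at 4 mg/kg, 73.2% after quantile normalization and 67.5% with arrays centred, and for 20 against 4 mg/kg 34.2%, 45.3% and 46.0%.

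Of the 8 ID and BMP-SMAD genes, none passed as reported. At 20 mg/kg against vehicle 3 passed after quantile normalization (ID1, SMAD7 and BMP4), 5 with arrays centred (ID1, ID2, SMAD7, BMP4 and SKIL), and 1, ID4, with the next brightest probe set, with the mean of probe sets or without cross-hybridising ones. ID2 could not be tested with the next brightest probe set. Without cross-hybridising probe sets ID1, ID2 and BMP4 could not be tested. Arrays centred gave 2 at 4 mg/kg (ID1 and SKIL) and 1 for 20 against 4 mg/kg (BMP4), where ID4 was the 1 that passed with the next brightest probe set or without cross-hybridising ones. Without each array 0 to 1 passed at 20 mg/kg against vehicle and 0 in the other comparisons. Of the 13 probe sets, 1 passed at 20 mg/kg against vehicle, 0 with no filter or the block, 3 after quantile normalization, 6 with arrays centred and 0 to 1 without each array. With arrays centred 2 passed at 4 mg/kg and 2 for 20 against 4 mg/kg, where 0 passed with no filter, the block or without any array. Of the pathway list 4 passed at 20 mg/kg, 0 with no filter, the next brightest probe set or the block, 1 without cross-hybridising probe sets, 11 after quantile normalization, 17 with arrays centred and 0 to 4 without each array. GDF15 could not be tested with the next brightest probe set. Without cross-hybridising probe sets neither GDF15 nor HES1 could be tested, so their calls were not lost there by a test. At 4 mg/kg 6 passed with arrays centred and 0 to 2 without each array, and for 20 against 4 mg/kg 3 after quantile normalization, 2 with arrays centred and 0 to 1 without each array. The cause of these differences was not tested.

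No result that passed changed direction. Among those that did not pass, BAMBI for 20 against 4 mg/kg was at 0.0041 after quantile normalization and 0.058 with arrays centred, with a range of -0.068 to 0.051 over leaving out a 4 mg/kg array and 0.0027 without 20 mg/kg replicate 2, and at the lower dose it was at -0.011 with arrays centred. TCF4 for 20 against 4 mg/kg was at 0.019 after quantile normalization and 0.017 with arrays centred, and SKIL at 0.11 with the next brightest probe set. At the lower dose SMURF2 was at 0.13 with the next brightest probe set or without cross-hybridising ones and 0.20 with the mean, and HES1 at 0.073, 0.019 with the mean and -0.12 to 0.094 over leaving out an array. PPM1A for 20 against 4 mg/kg was at -0.037 with the mean. Over leaving out each array, PPM1A ranged from -0.12 to 0.89 there and from -0.045 to 0.97 at 4 mg/kg. ID4 209291_at ranged from -0.098 to 0.019 and BMP4 from -0.53 to 0.13 at 4 mg/kg, where BMP4 was also at 0.12 without 4 mg/kg replicate 1. For 20 against 4 mg/kg JUNB ranged from -0.50 to 0.083, SMAD3 from -0.25 to 0.012 and TWSG1 from -0.053 to 0.18.

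The labels do not say whether the replicate numbers pair the arrays. Across genes the differences between replicates 1 and 2 correlated at 0.146 for vehicle and 4 mg/kg. The correlation was -0.118 for vehicle and 20 mg/kg and 0.127 for 4 and 20 mg/kg. No reference for paired arrays was at hand, so these values do not decide whether the arrays were paired. Genes near the intensity floor, ID3 and SMAD6 among them, give no change at this signal over background.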
